A study of Mus musculus with 8 samples.

Results

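Volume-regulated and calcium-activated anion channels were followed through 10 genes of 24060 in the deposited tables: Lrrc8a, Lrrc8b, Lrrc8c, Lrrc8d and Lrrc8e, the tweety genes Ttyh1, Ttyh2 and Ttyh3, and Ano6 and Best1. They were chosen by gene symbol as known or proposed anion channel genes, and each had a row in every table. The data came from the cortex of 4 young adult mice (postnatal day 80), males and females, whose sexes the labels do not assign to the animals. All 4 mice carried Aldh1l1-creERT2 (hemi) and Ribotag (het), so no animal lacked the Cre or the tag. Aldh1l1 regulatory sequence drives a Cre that tamoxifen switches on, and RiboTag puts a hemagglutinin (HA) tag on the ribosomal protein Rpl22 of cells in which Cre has acted. Animals are called by their numbers, 579, 580, 581 and 595. The input library of an animal was made from its cortex lysate, and its HA IP library from what anti-HA precipitation brought down with tagged ribosomes. The input still contains the astrocytes themselves, and HA IP reads the ribosome-bound RNA of recombined cells, whatever their type.

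A swollen cell lets chloride and small organic osmolytes leave through the volume-regulated anion channel, and water follows. The channel is built from LRRC8 proteins: LRRC8A is required, and it assembles with LRRC8B, LRRC8C, LRRC8D or LRRC8E, which set conductance and the solutes that pass. In brain, astrocytes swell readily, and this channel is known there as a route for chloride, taurine and glutamate. Tweety proteins were described as chloride channels, though whether they form a pore is disputed. ANO6 (TMEM16F) and bestrophin-1, the product of Best1, are switched on by calcium, ANO6 mainly as a lipid scramblase that also passes ions.

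The libraries held 33834388 to 53625125 fragments, and values are FPKM (fragments scaled by the length of the gene and the size of the library) on the deposited scale unless stated. Fold changes are log2 ratios of HA IP to input of FPKM + 0.1, fitted with limma after TMM scaling (trimmed mean of M-values). Two-sided p-values were adjusted by Benjamini-Hochberg across the 15606 genes tested, and adjusted values under 0.05 were called. Aldh1l1 itself, as a check of the precipitation, went from 21.8 ± 0.926 FPKM in input to 406 ± 26.2 in HA IP (SD, n = 4 each). Of the marker lists, 8 of 8 astrocyte genes were higher in HA IP and 8 of 8 neuron, 7 of 7 microglia, 6 of 7 endothelial (all but Kdr) and 7 of 8 oligodendrocyte lineage genes were lower. Of 7 mural cell and fibroblast genes, Pdgfrb and Notch3 were higher, Rgs5, Kcnj8 and Dcn lower, and Acta2 and Col1a1 not called. Beside all these lists, 42.1% of all genes tested were called higher and 41.2% lower. Genes were tested where 4 libraries reached a minimum of 10 fragments at the median depth, and Kcnj8 reached it in no HA IP library, so it was tested only through the input, where it is high. Fewer cells of a type and less RNA per cell cannot be told apart in such bulk libraries. The TMM factors of HA IP libraries were lower than those of input by 0.84 on the log2 scale (HA IP minus input -0.84), and the median gene stood at 0.01 with scaling and at -0.75 without it. The pseudocount makes that shift, and any fold change, smaller for genes with values near or under 0.1 FPKM.

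Of the 10 genes, 9 passed the filter on low values, Best1 only because of its input libraries, where it is high. Ttyh1, Lrrc8a, Ttyh2, Ttyh3 and Ano6 were higher in HA IP, and Lrrc8b, Lrrc8d, Lrrc8c and Best1 were lower. These 5 higher and 4 lower genes stand beside a background in which 42.1% of all genes tested were called higher and 41.2% lower, or 83.3% in either direction, so being called is common here. On the deposited scale the counts were 4 and 4, with 23.3% and 61.6% of all genes called. The gene whose call depended on the scaling was Ano6. After TMM scaling the HA IP and input values of all 9 genes did not overlap, as was so for 40.1% of genes tested in the higher and 38.5% in the lower direction. The median log2 fold change of the 9 genes was 0.85, against 0.01 for all genes tested. That median is the value of Ano6 alone, and the 9 genes were spread from -4.89 to 3.49.

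**Figure D1:**
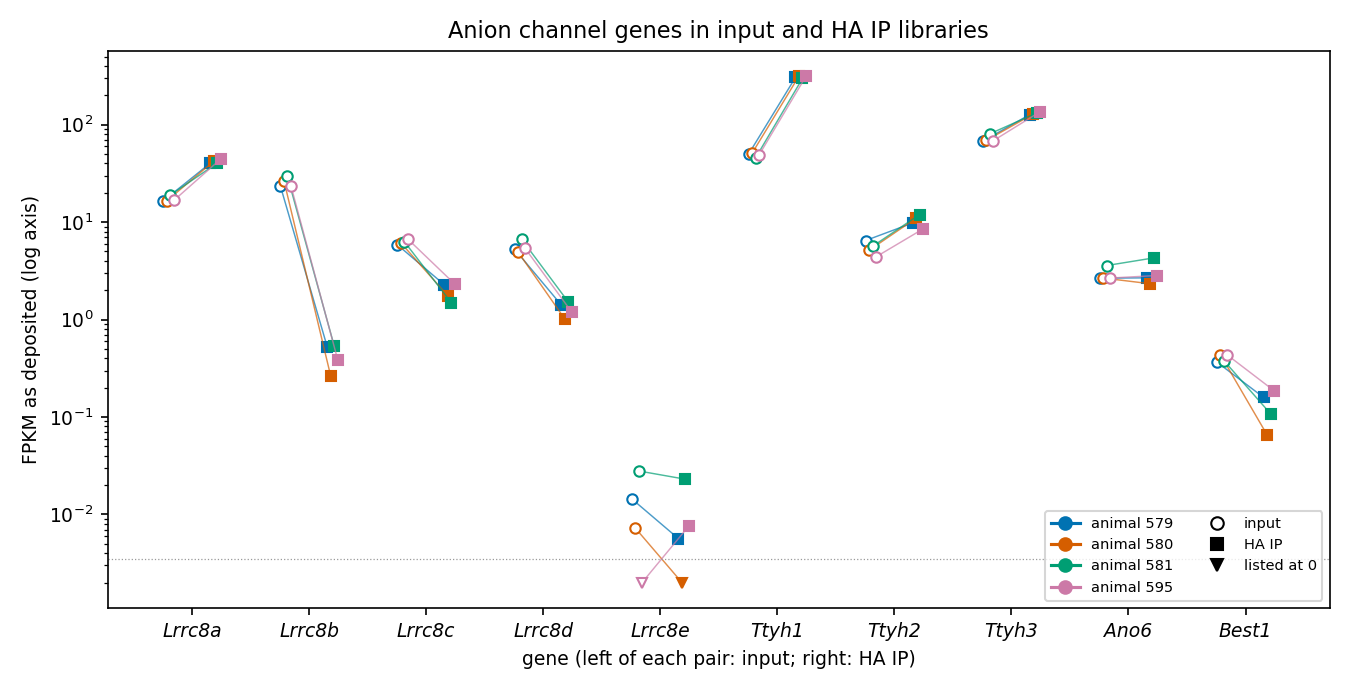
FPKM as deposited (log axis) of the 10 genes in each library, input at the left and HA IP at the right of each pair, with lines joining the libraries of an animal and triangles for values listed at 0. Ttyh1 rose from 45.8 to 51.1 in input to 299 to 316 in HA IP, and Lrrc8b went from 23.4 to 29.5 down to 0.262 to 0.534.

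Lrrc8a, which encodes the required subunit of the volume-regulated channel, was the LRRC8 gene that rose. In animals 579, 580, 581 and 595 its input values were 16.5, 16.6, 19.0 and 16.7 FPKM, and its HA IP values were 40.2, 42.1, 40.4 and 44.5. Every HA IP library was above every input library, and the input of animal 581 lay above the other inputs. The log2 fold change was 2.12 (SE 0.07; limma, adjusted p = 1.98e-09), a 4.33-fold difference, and it ran from 1.90 to 2.23 in the 4 animals. A larger rise was found for 8.96% of the genes tested.

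Lrrc8b, an accessory subunit gene, fell furthest of the 10 genes. Its input values were 23.4, 26.7, 29.5 and 23.6 FPKM and its HA IP values 0.525, 0.262, 0.534 and 0.386, in the same animal order. The groups lay far apart: 206 fragments were found in the 4 HA IP libraries together and 11730 in the 4 input libraries. The log2 fold change was -4.89 (SE 0.18; limma, adjusted p = 4.37e-09), or 29.6-fold lower, and 0.0897% of genes tested fell further. It was -3.69 with a pseudocount of 1 and -5.65 on the deposited scale, so the size rests on those choices. The 8 neuron markers stood between -4.41 and -2.35, with a median of -3.88. With the pseudocount of 0.1, Lrrc8b was below the lowest of them, Gad2. On the deposited scale, also with 0.1, Lrrc8b had -5.65 and Gad2 -5.21. Values of the neuron markers with other pseudocounts were not kept, so this order is given for 0.1 only. The summed level of the 8 neuron markers was 276 to 349 CPM (fragments relative to library size) in HA IP and 7639 to 8600 CPM in input. Whether RNA of other cells carried over makes up the Lrrc8b value in HA IP was not tested.

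Lrrc8d, whose product favours uncharged osmolytes such as taurine, and Lrrc8c were lower by much less. Lrrc8d had 5.29, 4.94, 6.69 and 5.39 FPKM in input and 1.41, 1.01, 1.51 and 1.19 in HA IP. All 4 animals were lower in HA IP, with a log2 fold change of -1.24 (SE 0.15; limma, adjusted p = 2e-05) and -2.04 on the deposited scale. Lrrc8c had 5.85, 6.11, 6.28 and 6.68 FPKM in input and 2.28, 1.76, 1.49 and 2.31 in HA IP. Its within-animal log2 ratios ran from -1.22 in animal 581 to -0.47 in animal 579, with a fitted change of -0.83 (SE 0.15; limma, adjusted p = 0.000442). Endothelial markers, whose cells are also part of the input, had a median of -1.94 and summed to 7.52 to 16.1 CPM in HA IP and 60.5 to 83.9 CPM in input. None of those 7 markers was at 0 throughout, and their part in the Lrrc8c values was not tested.

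Lrrc8e was at the edge of detection and was not tested. It had 7 fragments over the 4 input libraries (2, 1, 4 and 0 in animals 579, 580, 581 and 595) and 6 over the 4 HA IP libraries (1, 0, 4 and 1). At 0 fragments, up to 3 fragments are allowed, or 0.0559 CPM in the input of animal 595 and 0.0677 CPM in the HA IP library of animal 580, for counting error only. A difference was not detectable at this depth.

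**Figure D2:**
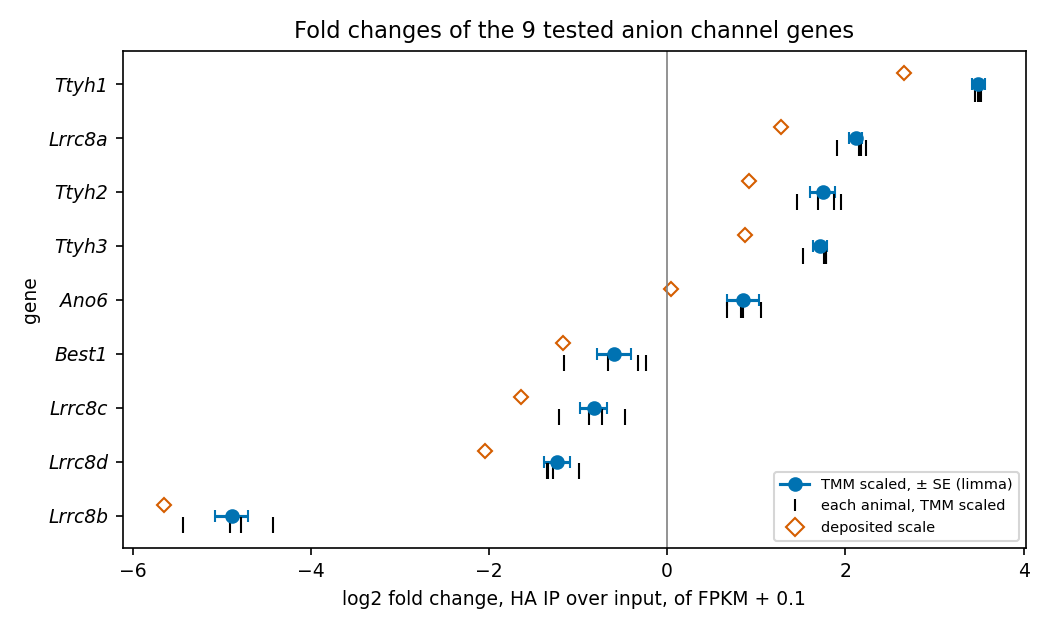
Log2 fold change of HA IP over input for the 9 tested genes, of FPKM + 0.1: filled circles with SE are the limma fit after TMM scaling, ticks the 4 animals, and open diamonds the fit on the deposited scale. Ano6 stands at 0.85 with TMM scaling and at 0.04 on the deposited scale, and the other genes keep their direction.

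Within the LRRC8 family the composition differed between the groups, a comparison in which the scaling between libraries cancels. Lrrc8a made up 31.4 ± 0.871% of the summed LRRC8 FPKM in input and 91.9 ± 1.14% in HA IP (SD, n = 4 each), whereas Lrrc8b made up 47.0 ± 1.90% and 0.943 ± 0.307%. The share of Lrrc8c went from 11.4 ± 1.04% to 4.29 ± 0.798% and that of Lrrc8d from 10.2 ± 0.760% to 2.83 ± 0.571%. Lrrc8e stayed at or below 0.0523% in every library. In an exact two-sided permutation test of 4 against 4 libraries, the shares of Lrrc8a, Lrrc8b, Lrrc8c and Lrrc8d each gave p = 0.0286, the smallest that this design allows, and an adjusted p of 0.0327 over the 8 family shares tested. A paired exact sign-flip test over 4 animals cannot go below p = 0.125, so with pairing none of these passed. In CPM, which does not divide by length, Lrrc8a went from 35.3 ± 0.790% to 91.3 ± 1.28% and Lrrc8d from 21.0 ± 1.34% to 5.17 ± 1.02%. Lrrc8b went from 35.2 ± 1.74% to 0.625 ± 0.201% in CPM, so in input it led Lrrc8a by FPKM only. The summed level of the family was 189 to 206 CPM in HA IP and 195 to 234 CPM in input, ranges that overlap on the deposited scale.

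Lrrc8b, Lrrc8c and Lrrc8d lie in 1 stretch of chromosome 5 (mm10, the build of the files, which is GRCm38), at chr5:105415206-105490079, chr5:105519345-105613018 and chr5:105699963-105815215. The 3 genes thus span 400.0 kb, in which RefSeq also places lncRNA genes and the coding gene Gm42166, and all 3 were lower in HA IP, though by different amounts. Lrrc8a lies apart, at chr2:30237769-30263790. Promoter windows of 250 bases, each before a transcript start in the RefSeq promoter table, are given for these 4 genes and for Ttyh1, the gene with the largest rise of the 10 (RefSeq, GRCm38.p6, plus strand, 5′ to 3′), with each CG in capitals, because their CG counts are compared next. The windows are chr2:30237519-30237768, chr5:105415525-105415774, chr5:105519221-105519470, chr5:105699719-105699968 and chr7:4119280-4119529, in that order. The starts used need not be the outermost ones: the Lrrc8b window lies inside the gene's span, and those of Lrrc8c and Lrrc8d reach into it. Lrrc8a and Ttyh1 were added after their values were seen.
Lrrc8a: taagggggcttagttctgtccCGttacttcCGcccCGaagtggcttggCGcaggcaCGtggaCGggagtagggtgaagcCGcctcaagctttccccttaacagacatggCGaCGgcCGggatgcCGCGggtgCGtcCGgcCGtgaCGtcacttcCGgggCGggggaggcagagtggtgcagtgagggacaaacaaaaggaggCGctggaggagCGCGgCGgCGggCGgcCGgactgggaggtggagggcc
Lrrc8b: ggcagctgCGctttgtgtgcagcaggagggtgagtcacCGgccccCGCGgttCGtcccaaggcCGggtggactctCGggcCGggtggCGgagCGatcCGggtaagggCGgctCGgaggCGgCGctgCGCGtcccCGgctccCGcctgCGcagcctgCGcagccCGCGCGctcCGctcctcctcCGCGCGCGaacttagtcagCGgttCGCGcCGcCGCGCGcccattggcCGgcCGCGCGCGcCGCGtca
Lrrc8c: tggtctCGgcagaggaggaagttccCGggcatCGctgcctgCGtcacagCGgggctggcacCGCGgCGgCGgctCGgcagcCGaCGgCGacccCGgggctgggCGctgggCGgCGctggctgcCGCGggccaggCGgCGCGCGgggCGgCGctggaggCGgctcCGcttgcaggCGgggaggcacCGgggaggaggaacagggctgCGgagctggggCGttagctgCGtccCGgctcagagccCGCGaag
Lrrc8d: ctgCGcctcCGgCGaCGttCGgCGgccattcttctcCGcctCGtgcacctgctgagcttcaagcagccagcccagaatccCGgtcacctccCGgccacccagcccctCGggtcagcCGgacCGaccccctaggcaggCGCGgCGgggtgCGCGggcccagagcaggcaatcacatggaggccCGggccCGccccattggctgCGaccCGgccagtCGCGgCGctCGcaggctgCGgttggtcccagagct
Ttyh1: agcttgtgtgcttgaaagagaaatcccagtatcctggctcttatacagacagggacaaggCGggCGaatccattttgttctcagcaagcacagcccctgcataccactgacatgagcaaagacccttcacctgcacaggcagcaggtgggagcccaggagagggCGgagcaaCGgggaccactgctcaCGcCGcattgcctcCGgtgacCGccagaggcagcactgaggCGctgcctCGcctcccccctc

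Lrrc8b had 43 CG in its window, and 99.3% of the 32851 promoter windows of this length in the table had fewer. Lrrc8c had 35, Lrrc8d 27 and Lrrc8a 25, so the rising Lrrc8a and the falling Lrrc8d were alike in this respect. Ttyh1 had 10, against a median of 6 over all windows. A further Lrrc8d start, at chr5:105700560-105700809 for its window, had 24. All 10 genes had a window in the table. The full palindromic site of nuclear factor I proteins, which act in astrocyte development, is TTGGC and GCCAA with any 5 bases between. It was searched on both strands and was in none of the 10 genes' windows. It was in 12 of all windows, or 0.0365%.

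The tweety genes all rose. Ttyh1 is known as a gene of neural stem cells and astrocytes, and it had the largest rise of the 10 genes. Its input values were 50.02, 51.1, 45.8 and 49.1 FPKM and its HA IP values 306, 316, 299 and 315 in animals 579, 580, 581 and 595. The groups were widely separated and the 4 animals nearly alike, with log2 ratios from 3.45 to 3.52. The fitted change was 3.49 (SE 0.07; limma, adjusted p = 2.37e-10), or 11.3-fold, and 2.49% of genes tested rose further. The 8 astrocyte markers ran from 2.96 to 5.11, with a median of 4.42. Ttyh1 lay low in that range, above Aqp4 at 2.96. It was level with Slc1a2 at 3.50 (SE 0.10), and these genes cannot be ordered. The other markers were higher.

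Ttyh3 had 67.6, 69.0, 80.6 and 68.5 FPKM in input and 127, 128, 132 and 136 in HA IP. No HA IP value came near the inputs, of which that of animal 581 was highest, and the log2 fold change was 1.71 (SE 0.08; limma, adjusted p = 1.28e-08). Ttyh2, which is known in brain as an oligodendrocyte transcript too, had 6.48, 5.15, 5.66 and 4.42 FPKM in input and 9.80, 10.97, 11.96 and 8.52 in HA IP. Its groups did not overlap, its log2 ratio ran from 1.45 in animal 579 to 1.95 in animal 580, and the fitted change was 1.74 (SE 0.14; limma, adjusted p = 9.58e-07). The oligodendrocyte lineage list went the other way, with 7 of 8 markers lower, a median of -2.79 and sums of 443 to 522 CPM in HA IP and 1374 to 1942 CPM in input. The exception was Cnp at 2.24. On the deposited scale Ttyh1, Ttyh2 and Ttyh3 were still higher, at 2.65, 0.92 and 0.87.

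By FPKM, Ttyh1 and Ttyh3 changed places within the family, but by CPM Ttyh1 led in both groups. Ttyh1 made up 39.0 ± 2.91% of the summed tweety FPKM in input and 68.6 ± 0.839% in HA IP, and Ttyh3 56.7 ± 2.99% and 29.1 ± 0.765% (SD, n = 4 each). Ttyh2 went from 4.31 ± 0.670% to 2.30 ± 0.355%, so its share was lower although its level rose. Each of these shares gave an exact permutation p = 0.0286 (two-sided, adjusted p = 0.0327). In CPM, Ttyh1 already led in input, with 60.8 ± 3.01%, and had 84.2 ± 0.512% in HA IP. The summed level of the 3 genes was 879 to 905 CPM in input and 3965 to 4150 CPM in HA IP.

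**Figure D3:**
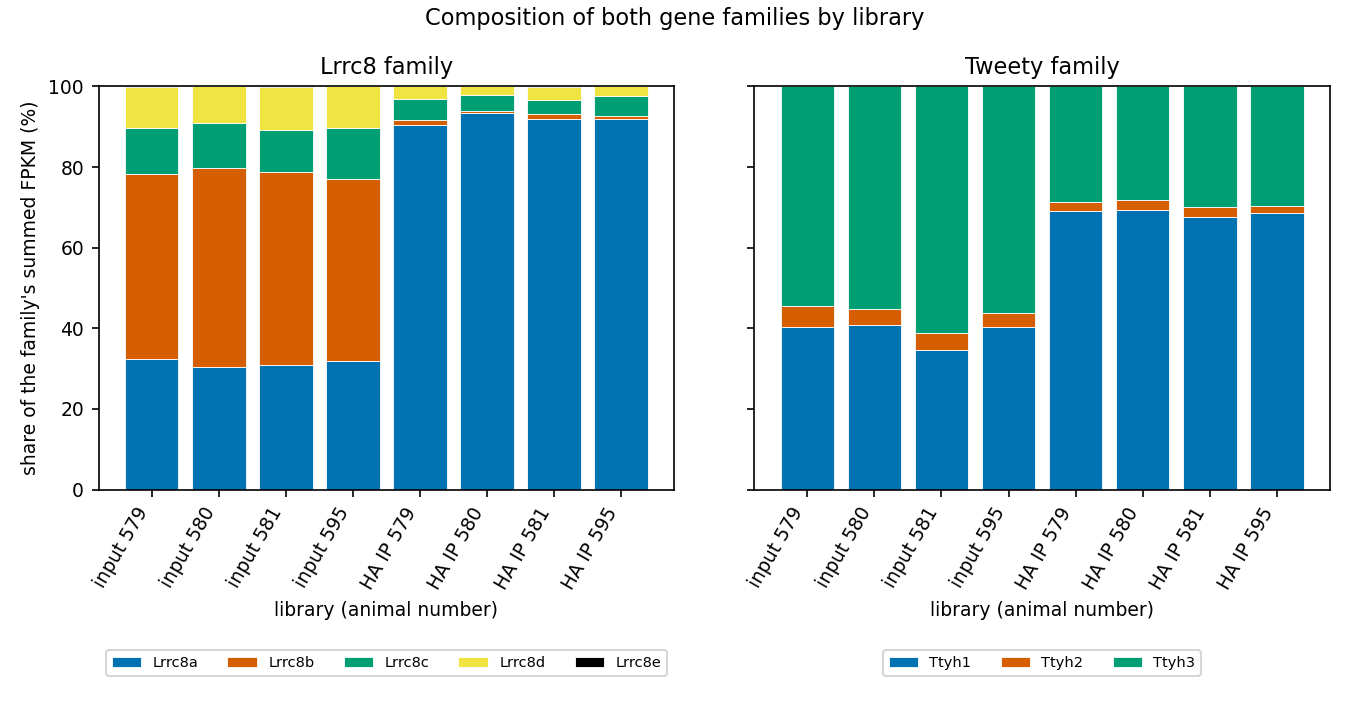
Share (percent) of each gene in its family's summed FPKM, 1 bar per library, with the 4 inputs at the left and the 4 HA IP libraries at the right of each panel. Lrrc8a takes 30.5% to 32.4% in input and 90.5% to 93.3% in HA IP, and Ttyh1 34.6% to 40.8% and 67.5% to 69.4%; Lrrc8e is too small to be seen.

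Of the calcium-activated genes, Best1 was low in both groups, at 0.835 ± 0.0746 CPM in input and 0.268 ± 0.111 CPM in HA IP. Ano6 was at 32.8 ± 5.23 and 34.4 ± 9.78 CPM (SD), and its FPKM depend on a fitted length of 11318 bases. Ano6 had 2.66, 2.67, 3.59 and 2.67 FPKM in input and 2.68, 2.33, 4.29 and 2.83 in HA IP. As deposited, the groups overlapped, and animal 581 was highest in both. After TMM scaling the log2 fold change was 0.85 (SE 0.18; limma, adjusted p = 0.00129), but on the deposited scale it was 0.04 and did not pass (adjusted p = 0.846). Best1 had 27, 32, 29 and 48 fragments in input, or 0.366, 0.437, 0.379 and 0.432 FPKM, and 15, 6, 10 and 13 fragments in HA IP, or 0.159, 0.0654, 0.108 and 0.186 FPKM. All HA IP values were below all inputs, with a log2 fold change of -0.60 (SE 0.19; limma, adjusted p = 0.0162), which the pseudocount makes smaller: with 0.01 in its place it was -0.86. Without both libraries of animal 580, the animal with the lowest HA IP value, Best1 had -0.41 and did not pass (limma, adjusted p = 0.0835). Best1 reached the filter's minimum in all 4 input but only 2 HA IP libraries, so it was tested through the input, where it is high. Its low HA IP values rest on 44 fragments in all.

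Levels of different genes can be ordered by FPKM only as far as the lengths in them hold. The steps of the values gave lengths of 11092, 11318, 7824 and 4644 bases for Ttyh1, Ano6, Lrrc8d and Ttyh3. RefSeq lists 4, 2, 2 and 2 curated transcripts for these genes. Lrrc8a, with 1 curated transcript, had 4250 bases. If a length sums several transcripts, the FPKM of that gene is too low. With that limit, the order of means in HA IP was Ttyh1 at 309, Ttyh3 at 131, Lrrc8a at 41.8, Ttyh2 at 10.3, Ano6 at 3.04, Lrrc8c at 1.96, Lrrc8d at 1.28, Lrrc8b at 0.427 and Best1 at 0.129 FPKM. Only the ranges of Lrrc8c and Lrrc8d overlapped among neighbours in that order. In input it was Ttyh3 at 71.5, Ttyh1 at 49.0, Lrrc8b at 25.8, Lrrc8a at 17.2, Lrrc8c at 6.23, Lrrc8d at 5.58, Ttyh2 at 5.43, Ano6 at 2.90 and Best1 at 0.404 FPKM. There Lrrc8c, Lrrc8d and Ttyh2 overlapped and cannot be ordered. RefSeq places lncRNA genes over Ttyh1 and Ano6, and a further coding gene and a pseudogene over Lrrc8d. Whether the counting used strand is not given in the sources used here, so reads from opposite strands may not be separated.

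The genes most like Ttyh1, by Euclidean distance over the 4 within-animal log2 ratios among 15605 other genes, were Adhfe1 (distance 0.10), Dio2 (0.11) and Tlr3 (0.11), at 3.50, 3.46 and 3.51. Those nearest Lrrc8b were Cpne4 (0.45), Nos1 (0.56) and Zbed6 (0.69), at -4.78, -4.85 and -4.62. Nos1 reached the filter's minimum in 4 input but only 3 HA IP libraries, so it was tested through the input, where it is high. Distances were taken with the pseudocount of 0.1 only. With 0.01, Lrrc8b, Cpne4, Nos1 and Zbed6 had -5.10, -5.05, -5.76 and -5.01. With 1 they had -3.69, -3.43, -2.64 and -3.00, so the likeness, most of all that of Nos1, depends on the pseudocount.

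Genes that work beside these channels were described from 4 lists. Mlc1 and Hepacam, which encode the astrocyte membrane protein MLC1 and its partner GlialCAM and are known to modulate the volume-regulated channel, both rose. Mlc1 went from 57.4 ± 4.85 FPKM in input to 1006 ± 74.0 in HA IP (log2 fold change 4.97, SE 0.10), and Hepacam from 28.3 ± 0.931 to 263 ± 10.2 (4.05, SE 0.06). Both rose further than any of the 10 anion channel genes. Clcn2, the chloride channel gene whose product GlialCAM also binds, rose by 1.27 (SE 0.10), from 12.8 ± 0.828 to 17.4 ± 1.74 FPKM. Adjusted p-values (limma) were 2.37e-10, 1.61e-10 and 8.14e-07.

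Of 11 other anoctamin and bestrophin genes, 7 were tested, of which 2 were higher and 5 lower (median -0.77), or 1 and 6 on the deposited scale. Over all genes tested, 42.1% were higher and 41.2% lower (23.3% and 61.6% on the deposited scale), which holds beside this and the next lists. Ano3, a neuronal anoctamin gene, went from 23.8 ± 2.55 to 0.480 ± 0.219 FPKM (log2 fold change -4.66, SE 0.22; limma, adjusted p = 2.15e-08). Ano4, Ano2, Ano1 and Ano5 were lower too, at -2.85, -2.34, -0.77 and -0.57, Ano1 and Ano2 being genes of calcium-activated chloride channels. The pseudocount sets these sizes and their order: with 0.01 in place of 0.1, Ano4 had -3.46, Ano2 -3.42, Ano1 -1.46 and Ano5 -1.78. Ano2 reached the filter's minimum in 4 input and 0 HA IP libraries and Ano5 in 4 and 2, so they were tested through the input, where they are high. For Ano1 the HA IP and input values overlapped after TMM scaling, and 43 of its 77 HA IP fragments came from animal 581. Ano10 rose by 1.66 (SE 0.10), and Ano8 by 0.55, which became -0.28 on the deposited scale. Ano7, Ano9, Best2 and Best3 did not pass the filter, and Ano9 and Best2 had 0 fragments in all HA IP libraries and 4 and 3 in input.

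Of 12 genes of the CLC family and other anion channels, 10 were tested, of which 5 were higher, 4 lower and 1 not called (median 0.45; -0.18 on the deposited scale, with 4 higher and 5 lower). Beside Clcn2, the endosomal exchanger genes Clcn3 and Clcn4-2 rose by 1.09 and 1.10, Tmem206, the proton-activated chloride channel gene, by 1.11, and the lysosomal Clcn7 by 0.60. Clcn7 stood at -0.24 on the deposited scale. Clcn1, the chloride channel gene of skeletal muscle, was the lowest at -2.13, followed by Clcn5 at -1.46, Slco2a1 at -0.80 and Clcn6 at -0.52. Clcn1 reached the filter's minimum in 4 input but only 1 HA IP library, and Clcn5 in 4 and 3. Both were thus tested through the input, where they are high. With a pseudocount of 0.01 Clcn1 had -2.98 and Clcn5 -2.15, and with 1 they had -0.67 and -0.40. Cftr had 0.31 (SE 0.31) and did not pass.

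All 16 genes of cell volume regulation and osmolyte transport were tested, and 5 were higher, 7 lower and 4 not called (median 0.02). On the deposited scale 3 were higher and 9 lower. Slc12a4, a potassium-chloride cotransporter gene whose product lets salt out of swollen cells, went from 1.67 ± 0.234 to 20.8 ± 3.50 FPKM (log2 fold change 4.37, SE 0.13; limma, adjusted p = 1.21e-09). Slc12a7 rose by 1.24, the betaine and GABA transporter gene Slc6a12 by 1.11 and the kinase gene Wnk1 by 1.09. Slc6a12 did not pass on the deposited scale, and neither did Wnk2, which rose by 0.77 with scaling. Among the lower genes reported here, Wnk3 had -1.84, the taurine transporter gene Slc6a6 -1.17 and the sodium-potassium-chloride cotransporter gene Slc12a2 -0.79. Nfat5, Trpv4 and Stk39 were also lower, at -0.73, -0.65 and -0.50. With a pseudocount of 0.01 Trpv4, at 0.263 ± 0.065 FPKM in input, had -1.07. Trpv4 reached the filter's minimum in 4 input but only 1 HA IP library, so it was tested through the input, where it is high. Wnk4, Oxsr1, Akr1b3 and the inositol transporter gene Slc5a3 did not pass, at 0.40, 0.23, 0.14 and -0.09. With the animal as a block Oxsr1 passed (limma, adjusted p = 0.0423), while on the deposited scale Oxsr1 and Akr1b3 were lower, at -0.59 and -0.60. Slc5a3 rested on the HA IP library of animal 581, with 10.1 FPKM against 1.10 to 2.06 in the other HA IP libraries and 3.79 to 5.99 in input. Without that library it was lower, at -0.74 (limma, adjusted p = 0.0088).

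**Figure D4:**
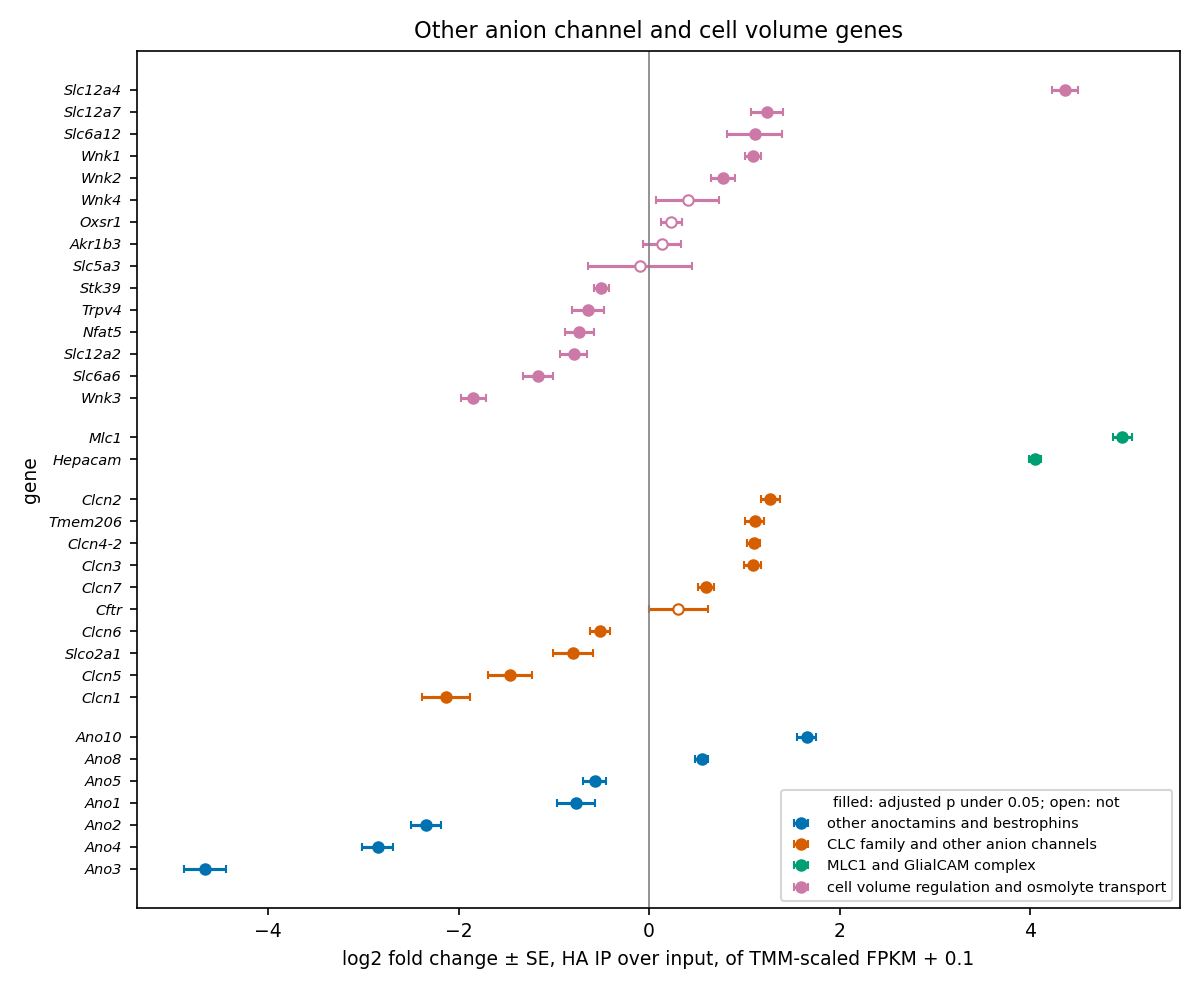
Log2 fold change with SE of HA IP over input (TMM-scaled FPKM + 0.1, limma) for the tested genes of the 4 lists that are reported here, filled where the adjusted p was under 0.05 and open where it was not. Mlc1 at 4.97, Slc12a4 at 4.37 and Hepacam at 4.05 stand at the right, and Ano3 at -4.66 at the left.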

How the data were processed

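Messenger RNA from 4 HA IP and 4 input libraries was sequenced as paired ends from a stranded kit, per the labels' protocols. Tools listed in the submitters' processing notes are bcl2fastq 2.17, STAR and HTSeq, with build mm10. Their settings, the gene models and any use of strand were not found in the labels, nor were other versions. The deposited tables name no unit and were read as FPKM made by the authors, because all 142235 nonzero values came to whole fragments, to within 0.00032, once each gene had a fitted length and each library a fitted total. Those fragments, 99.91% to 99.96% of the totals, served for the filter, for CPM and for counts. Lengths were fitted to meet that tolerance, so fragments of genes with very few of them are less sure.

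Genes were tested if 4 libraries reached 0.246 CPM (10 fragments at the median depth) and the sum over libraries reached 15 fragments. FPKM were divided by TMM factors (trim 0.3 and 0.05, no weights, own code) and log2(FPKM + 0.1) was fitted with limma 3.58.1 in R 4.3.3 with an intensity trend and no covariate. The fit and the recovery were tested on simulated data. Same-numbered libraries come from 1 animal: deviations from group means correlated at 0.22 to 0.40 within animals and at most 0.11 between them. Family shares were compared by exact permutation. The members and lists were chosen with earlier results of these data known. Named genes were all members, preset partners, extremes of each list and any count of 5 or fewer. Alternatives covered pseudocount, scaling, filter, pairing and left-out libraries. Protein sequences were not used here, and some list genes, though counted, are not reported here.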

Additional observations from a re-analysis of the deposited data

Results flagged for a closer look

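In 36 groups of 4 values (FPKM of the 10 genes and their family shares), 4 held a library far from the other 3, and each time it was the input of animal 581. Chance flags about 1 group in 20, and these 4 are not independent, since the shares are made from the same FPKM. Lrrc8a had 19.0 FPKM there against 16.5 to 16.7 in the other inputs, Ttyh3 80.6 against 67.6 to 69.0, and Ano6 3.59 against 2.66 to 2.67. The share of Ttyh1 in the tweety family was 34.6% there against 40.2% to 40.8%. Without that library all 9 tested genes kept their call and direction.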

How the results depend on the processing

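The fold changes of the 9 tested genes kept direction and call in 168 of 170 recomputed values, the exceptions being Ano6 on the deposited scale and Best1 without animal 580. With a stricter filter of at least 1 CPM in 4 libraries, 8 genes were tested and Best1 was not, so Best1 has no value there. Without scaling, 3643 genes were higher in HA IP in place of 6565, or 27.5% of calls in place of 50.5%. There Ano8, Clcn7, Cftr, Wnk2, Wnk4, Oxsr1 and Akr1b3 turned to -0.28, -0.24, -0.12, -0.058, -0.37, -0.59 and -0.60, by the shift that scaling adds. With libraries left out, Slc5a3 ran from -0.74 to 0.28 and Akr1b3 from -0.15 to 0.31. Neither was called with all libraries, but Slc5a3 was called lower without animal 581 (-0.69) or its HA IP library, Oxsr1 higher without HA IP 580 (0.32) and with the replicate block (0.23), and Oxsr1 and Akr1b3 lower without scaling. With the replicate block by animal, 6717 genes were higher and 6596 lower, and no member's call changed. For shares the replicate block is the paired exact test, which cannot pass at 4 animals: the differences of 60.5, -46.1, -7.12 and -7.32 percentage points for Lrrc8a, Lrrc8b, Lrrc8c and Lrrc8d, and 29.6, -2.01 and -27.6 for Ttyh1, Ttyh2 and Ttyh3, all gave an adjusted p of 0.143. With libraries left out they ran from 59.8 to 61.3, -46.7 to -45.2, -7.51 to -6.67, -7.68 to -7.08, 28.2 to 30.2, -2.24 to -1.68 and -28.4 to -26.2, in the same order. With 3 against 3 libraries the exact permutation test cannot go below p = 0.1. Lrrc8e, at -0.0016 points with all libraries, ran from -0.012 to 0.0063. Depth limits Lrrc8e and Best1 most.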
